A study of Mus musculus with 62 samples.

Results

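The respiratory chain and the ATP synthase of the mitochondrion were followed in the neocortex of mice that carried melanoma cells able to cause cachexia, a wasting of muscle and fat. The gene set was defined by symbol, with earlier results of these data known. It took mitochondrial genes (symbols beginning with mt-) and nuclear genes of complexes I to V, leaving out symbols marked as pseudogenes. It held 98 of the 47643 genes in the deposited table, of which 13 were mitochondrial and 85 nuclear. Complex I (NADH dehydrogenase) had 42 members, complex II (succinate dehydrogenase) 4, complex III (cytochrome bc1) 10, complex IV (cytochrome c oxidase) 23 and complex V (ATP synthase) 19. Complexes were assigned by gene name, with Ndufa4, Ndufa4l2 and Cox7a2l counted under complex IV, and Atp5s and Atp5sl under complex V. A mean level of at least 1 TPM (transcript abundance corrected for length, scaled to a sum of 1000000 in each library) was required for testing, and 97 members met it. The remaining member, the testis isoform Cox8c, was listed at 0 in every library.

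Poly(A)-selected RNA of the neocortex was measured in 62 libraries from female mice, given as 2 months old. Mice had received melanoma cells of a cachectic kind (CAC), melanoma cells of a non-cachectic kind (NCAC) or a mock injection (Con, called mock here), and tissue was taken 2, 4, 6 or 8 weeks later. The 12 groups held 5 libraries each, except CAC at 8 weeks, which held 7, and the labels call them biological replicates. The sample labels give the host strain as C57BL6/J and the design text gives NCI Ath/nude, so the strain and the immune cells of the host are uncertain. No transgene is named, and the identity of the melanoma lines beyond these names is not given in the sources used here. The protocol text refers to LLC cells and 3 weeks, which matches no group. Libraries of 2 weeks, of CAC at 4 weeks and 4 of the 5 of NCAC at 4 weeks were labelled lane 3, and all others lane 4.

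An estimated 44.95 to 50.6 M reads per library (median 48.1) were recovered from the steps of low TPM values. All 9 excitatory neuron markers were detected, with a median sum of 2719 TPM. This alone does not set neocortex apart, as striatal markers had a median sum of 1553 TPM and choroid plexus markers 1075. Libraries also differed in neighbouring tissue. Summed choroid plexus markers ranged from 18.7 to 3094 TPM. Mock replicate 5 of 2 weeks had 3759 TPM of hypothalamus and pituitary markers against a median of 22.1. CAC replicate 1 of 4 weeks had 181 TPM of striatal markers against a median of 1553. CAC replicate 3 of 8 weeks had 22527 TPM of red blood cell markers against a median of 1449. Results that rest on these 3 libraries are given with and without them. In bulk tissue, fewer cells of a type and less RNA per cell cannot be told apart.

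Complexes I, III and IV pump protons out of the mitochondrial matrix as electrons pass from NADH to oxygen. Complex II feeds in electrons from succinate without pumping, and complex V uses the returning protons to make ATP. Complexes I, III, IV and V each combine proteins encoded by mitochondrial DNA with proteins encoded in the nucleus, made in the cytosol and imported, whereas complex II is wholly nuclear. Mitochondrial genes are transcribed as long polycistronic RNAs that are cut into shorter RNAs. Nearly all come from the same strand, while mt-Nd6 is read from the other. Neurons draw most of their ATP from this chain, much of it for ion pumping.

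The mitochondrial genes lie close together, and 3 pairs on the same strand overlap. mt-Atp6 and mt-Co3 share 1 base. The short partners of the other pairs are shown because reads in an overlap can belong to either gene, which makes the values of the short partner less certain. The sequences, 5′ to 3′, are from chromosome M of GRCm38 with GENCODE vM21 gene limits. Capitals in mt-Atp8 (chrM:7766-7969, plus strand) mark the 43 bases shared with mt-Atp6, which are 21.1% of its 204 bases. Capitals in mt-Nd4l (chrM:9877-10173, plus strand) mark the 7 bases shared with mt-Nd4.
mt-Atp8: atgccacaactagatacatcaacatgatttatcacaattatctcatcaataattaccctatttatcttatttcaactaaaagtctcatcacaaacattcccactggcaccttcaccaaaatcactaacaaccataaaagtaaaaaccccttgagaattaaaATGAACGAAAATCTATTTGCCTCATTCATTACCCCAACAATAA
mt-Nd4l: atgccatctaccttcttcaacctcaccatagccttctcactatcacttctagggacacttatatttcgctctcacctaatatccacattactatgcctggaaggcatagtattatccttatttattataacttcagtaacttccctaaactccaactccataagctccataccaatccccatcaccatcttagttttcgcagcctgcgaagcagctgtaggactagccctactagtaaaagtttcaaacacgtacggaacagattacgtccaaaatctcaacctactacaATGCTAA

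Some mitochondrial reading frames end in an incomplete stop codon that the poly(A) tail completes. The last 30 bases of 4 genes are shown because the libraries were selected on poly(A) and these ends lie next to the tail. A capital T marks the single base left after the last full codon in mt-Co3, mt-Nd4 and mt-Cytb, whereas mt-Nd2 ends with a complete stop codon.
mt-Co3: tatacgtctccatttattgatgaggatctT
mt-Nd4: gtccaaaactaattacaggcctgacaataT
mt-Cytb: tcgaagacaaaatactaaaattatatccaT
mt-Nd2: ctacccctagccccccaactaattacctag

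Promoters of nuclear members are known for sites of NRF1 and of ETS family factors. RefSeq (GRCm38.p6) gave the 250 bases before the gene start for 66 of the 84 tested nuclear members. An NRF1 motif (the letters GCGCA, any base, then GCGC, on both strands) was present in 12 of the 66 (18.2%) and in 3.86% of 27025 promoters of the same length. The ETS motif CCGGAAG, on both strands, was present in 11 of the 66 (16.7%) and in 7.05% of all promoters. Overlaps between the 2 motifs were not counted apart, and a match describes only these letters. The promoters of Sdha (chr13:74350241-74350490, minus strand) and Sdhd (chr9:50603850-50604099, minus strand) are shown as examples with matches, in capitals. The promoters of Ndufv1 (chr19:4012756-4013005, minus strand), Ndufv2 (chr17:66101560-66101809, minus strand) and Cox7a1 (chr7:30183921-30184170, plus strand) are shown because these genes carry the late results below, and they held neither motif.
Sdha: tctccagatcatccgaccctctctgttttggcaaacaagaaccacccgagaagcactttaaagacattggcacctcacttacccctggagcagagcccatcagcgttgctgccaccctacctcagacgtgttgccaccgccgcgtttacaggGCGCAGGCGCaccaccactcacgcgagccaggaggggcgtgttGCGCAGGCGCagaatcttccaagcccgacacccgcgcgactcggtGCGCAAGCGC
Sdhd: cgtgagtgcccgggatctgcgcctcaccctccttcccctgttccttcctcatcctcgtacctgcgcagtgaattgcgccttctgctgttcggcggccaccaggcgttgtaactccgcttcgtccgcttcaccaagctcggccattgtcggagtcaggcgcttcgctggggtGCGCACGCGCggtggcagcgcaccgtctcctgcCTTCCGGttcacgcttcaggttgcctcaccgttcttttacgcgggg
Ndufv1: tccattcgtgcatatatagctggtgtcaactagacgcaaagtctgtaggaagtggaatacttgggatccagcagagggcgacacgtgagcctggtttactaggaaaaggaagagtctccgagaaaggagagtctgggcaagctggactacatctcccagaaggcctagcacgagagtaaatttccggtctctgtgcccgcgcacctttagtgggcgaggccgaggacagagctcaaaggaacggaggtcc
Ndufv2: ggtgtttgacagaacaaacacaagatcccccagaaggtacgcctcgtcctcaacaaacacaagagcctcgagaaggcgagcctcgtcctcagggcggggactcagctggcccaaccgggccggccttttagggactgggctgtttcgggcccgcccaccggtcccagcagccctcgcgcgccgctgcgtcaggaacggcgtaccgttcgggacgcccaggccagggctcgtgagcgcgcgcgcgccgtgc
Cox7a1: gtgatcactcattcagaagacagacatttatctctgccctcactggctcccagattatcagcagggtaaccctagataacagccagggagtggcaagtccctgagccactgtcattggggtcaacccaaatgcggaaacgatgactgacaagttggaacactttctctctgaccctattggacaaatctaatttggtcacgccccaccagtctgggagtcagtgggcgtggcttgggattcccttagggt

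The 13 mitochondrial members took a median of 26.6% of all TPM in a library. The nuclear members together had group means of 2.12 to 2.34%. Averaged over libraries, mt-Co1, the catalytic core of complex IV, was at 53922 TPM. The other complex IV cores followed, with mt-Co2 at 38261 and mt-Co3 at 36322 TPM, and then mt-Atp6 of the ATP synthase proton channel at 33026 TPM. mt-Cytb, the only mitochondrial member of complex III, was at 19618 TPM. Complex I genes were lower, from mt-Nd1 at 16085 and mt-Nd4 at 13792 TPM down to mt-Nd5 at 6736 and mt-Nd3 at 6245 TPM. mt-Nd6 was the lowest mitochondrial member at 378 TPM.

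Nuclear members had a median level of 192 TPM against 16085 for the mitochondrial ones. By complex the nuclear medians were 169 TPM for I, 170 for II, 238 for III, 322 for IV and 252 for V. The highest nuclear member of each complex was Ndufb9, an accessory subunit of complex I, at 707 TPM, Sdha, the flavoprotein of complex II, at 308, Uqcr11 of complex III at 474, Cox8a of complex IV at 1710 and Atp5a1, the alpha subunit of the ATP synthase head, at 801. The 6 tested nuclear members under 10 TPM were all complex IV isoforms best known from other tissues or conditions, from Ndufa4l2 at 6.96 TPM to Cox7b2 at 2.03 TPM. Their estimated reads were few, with a median per library of 41.8 for Cox7a1 and 13.98 for Cox7b2 against 6691 for Ndufv1, so their values are the least precise of the set.

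The mitochondrial share of all TPM was highest in mock at 2 weeks (30.2% ± 1.97, SD, n = 5) and lowest in CAC at 8 weeks (23.7% ± 0.952, SD, n = 7). Between them came NCAC at 4 weeks (27.6% ± 0.769), mock at 4 weeks (27.3% ± 1.22), NCAC at 6 weeks (27.2% ± 2.00), CAC at 2 weeks (27.1% ± 2.73) and NCAC at 2 weeks (27.01% ± 2.05). Lower still were mock at 6 weeks (26.5% ± 0.798), CAC at 4 weeks (26.3% ± 1.66), NCAC at 8 weeks (26.01% ± 1.67), mock at 8 weeks (25.7% ± 2.05) and CAC at 6 weeks (24.4% ± 2.23), each with n = 5. Neighbours in this order differed by less than the larger of their SDs, except mock at 2 weeks and NCAC at 4 weeks. The nuclear share was small and even, between group means of 2.12% in mock at 2 weeks and 2.34% in CAC at 6 weeks. Because every library sums to the same total, a lower mitochondrial share raises all other genes in TPM. Some of the results below are therefore also given on a scale that leaves mitochondrial rows out of the sum. The others are on the deposited TPM only.

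**Figure D1:**
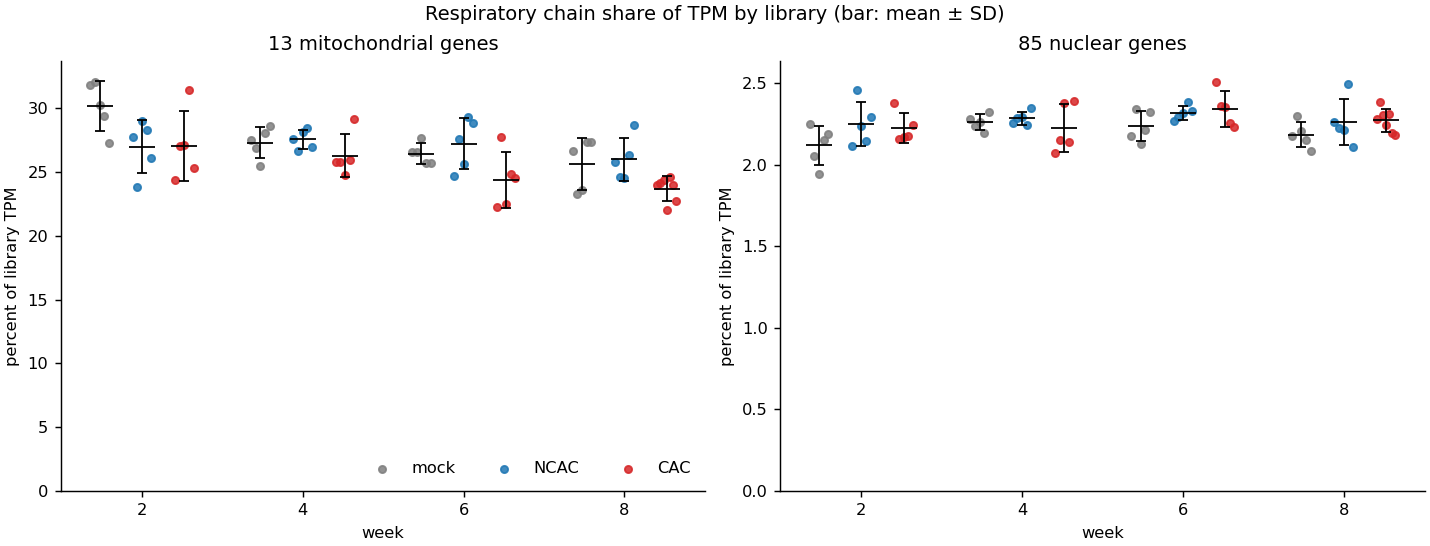
Share of all TPM (percent, vertical axis) taken by the 13 mitochondrial members in each of the 62 libraries, by week and arm, with group means ± SD. Mock at 2 weeks has the highest mean (30.2%) and CAC at 8 weeks the lowest (23.7%), and the groups between them overlap.

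Within groups, the mitochondrial genes moved together from library to library. Over the 62 libraries, with each group's mean removed from log2(TPM + 1), the median correlation of 78 mitochondrial pairs was 0.57 (range 0.13 to 0.96). The nuclear members had a median of 0.46, with 0.58 among complex I genes, 0.52 in complex II, 0.47 in complex III, 0.39 in complex V and 0.24 in complex IV. Between mitochondrial and nuclear members the median was -0.20 on the deposited TPM but 0.28 after TMM scaling and 0.10 relative to the sum of non-mitochondrial rows, so its sign depends on the scale. These are descriptions of values that share libraries and a common sum.

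Some genes followed this pattern less closely. mt-Nd6 correlated with the others at 0.13 to 0.54 only, and mt-Nd5 had 0.37 to 0.65. The short overlapping genes mt-Atp8 and mt-Nd4l also stood apart. mt-Atp8 correlated with mt-Nd4l at 0.90, more closely than with its own neighbour mt-Atp6, at 0.40. Much of this came from a single library: CAC replicate 1 of 4 weeks had 7480 TPM of mt-Atp8 and 5638 of mt-Nd4l, while the other 4 libraries of its group had 17822 to 20543 and 9713 to 11690 TPM. Without that library (n = 61) the first correlation was 0.80 and the other 0.71, and mt-Nd4l with mt-Nd4 went from 0.54 to 0.77. The pair mt-Nd2 and mt-Nd4 was at 0.91 with and without it.

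**Figure D2:**
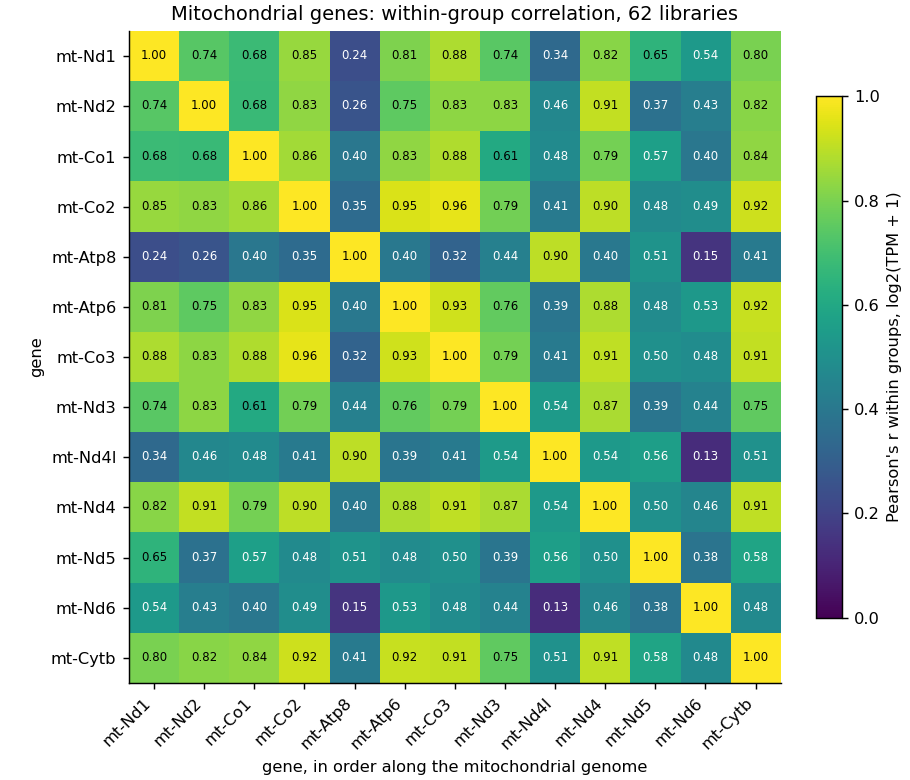
Pearson correlation of the 13 mitochondrial members over 62 libraries after removal of group means from log2(TPM + 1), with genes in genome order on both axes and colour for r. mt-Co2 and mt-Co3 reach 0.96, while mt-Atp8 and mt-Nd4l correlate with each other (0.90) more than with most others.

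At 2 weeks, mitochondrial members were estimated lower than mock in both tumour arms, and on the deposited TPM most nuclear members were estimated slightly higher. Both arms were compared with the same 5 mock libraries, so these values are not independent. In CAC, 13 of 13 mitochondrial estimates were below 0 and 72 of 84 nuclear estimates above 0, with medians of -0.18 and 0.06 on the log2 scale against 0.04 over all genes. The nuclear median in CAC depended on the scale, at 0.02 after TMM scaling and -7.95e-05 relative to non-mitochondrial rows, where the mitochondrial medians were -0.22 and -0.25. In NCAC, 13 of 13 mitochondrial and 77 of 84 nuclear estimates had those directions, with medians of -0.19 and 0.08 against 0.02 over all genes. By limma with Benjamini-Hochberg adjustment over 14494 genes, at an adjusted p under 0.05, 5 of 97 members passed in CAC (3 rose, 2 fell), where 4.28% of all genes passed, 3.68% upward and 0.6% downward. In NCAC 13 members passed (9 rose, 4 fell), where 8.71% of all genes passed, 5.87% upward and 2.84% downward. Between CAC and NCAC no member passed and 0% of all genes did, and 0 members had an unadjusted p under 0.05.

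The mitochondrial members that fell at 2 weeks were of complexes I, III and IV. mt-Cytb was at 24594, 23702, 22414, 21900 and 20087 TPM in mock, at 20212, 17843, 19766, 19799 and 19612 in NCAC, and at 17243, 19410, 19347, 22555 and 17712 in CAC. CAC replicate 4 reached into the mock range, and 1 NCAC library did so narrowly. Its log2 fold change was -0.23 ± 0.07 (SE) in CAC (adjusted p = 0.0321, limma) and -0.21 in NCAC (adjusted p = 0.0366). mt-Nd2, a membrane subunit of complex I, fell by 0.23 ± 0.07 in CAC (adjusted p = 0.041, limma), where all 5 libraries (10306 to 12054 TPM) were below the lowest mock library (12368). Without the 3 libraries that stood apart, of which mock replicate 5 is in this comparison, it was -0.25 with an adjusted p of 0.0536, and the call was kept in 3 of 10 fits leaving out 1 library. In NCAC it was also below mock in all 5 libraries, with -0.20 and an adjusted p of 0.0604. mt-Co1 and mt-Nd5 fell in NCAC, by 0.21 ± 0.06 (adjusted p = 0.0298, limma) and 0.27 ± 0.08 (adjusted p = 0.0326), and had -0.18 (adjusted p = 0.0623) and -0.19 (adjusted p = 0.154) in CAC.

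Among nuclear members at 2 weeks, Atp5g1, Atp5f1 and Ndufa4 passed in both tumour arms. Atp5g1 encodes subunit c of the proton-driven ring. It was at 63.9, 63.3, 57.5, 75.2 and 68.8 TPM in mock, at 83.3, 90.6, 79.0, 79.0 and 73.0 in NCAC, and at 102, 88.8, 80.3, 79.4 and 70.2 in CAC, so 1 library of each tumour arm lay within the mock range. It rose by 0.34 ± 0.10 in CAC (adjusted p = 0.0319, limma) and by 0.30 in NCAC (adjusted p = 0.0453), kept in 4 and 3 of 10 fits leaving out 1 library. Atp5f1, of the stalk that holds the head still, rose by 0.19 ± 0.05 in CAC (adjusted p = 0.0374, limma) and 0.21 in NCAC (adjusted p = 0.0191). Ndufa4, now known as a complex IV subunit, rose by 0.16 ± 0.05 in CAC (adjusted p = 0.0405, limma) and by 0.15 in NCAC (adjusted p = 0.038). Without the 3 libraries that stood apart its adjusted p was 0.0632 in CAC and 0.0486 in NCAC. In NCAC the test was also passed by Ndufs3, Ndufv2 and Ndufb6 of complex I, Uqcrc2 and Uqcrfs1 (the Rieske iron-sulfur protein) of complex III and Atp5b of the ATP synthase head, with 0.13 to 0.21. Between the arms these members did not differ beyond the threshold.

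One nuclear member fell at 2 weeks. Ndufa4l2, a hypoxia-induced relative of Ndufa4 known from brain pericytes, was at 8.55, 9.28, 10.03, 9.22 and 6.27 TPM in mock and at 3.68, 4.28, 7.09, 8.48 and 6.64 in NCAC, and the groups overlapped. It fell by 0.49 ± 0.14 in NCAC (adjusted p = 0.0225, limma), and lost the call without NCAC replicate 1 or 2 or mock replicate 3 (adjusted p = 0.099, 0.113 and 0.059). Markers of vessel cells moved in the same comparison: 5 of 7 pericyte and smooth muscle markers fell (summed 282.6 to 331 TPM in mock, 186.5 to 293.7 in NCAC) and 5 of 7 endothelial markers fell (172.1 to 222.2 and 118.5 to 189.5). In CAC 2 of 7 markers of each list fell. At an adjusted p under 0.05, 2.84% of all genes were called downward in NCAC and 0.6% in CAC. None of these markers was at 0 in all libraries, and their part in the result was not tested.

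The 2-week calls depended on the fit, the scale and single libraries. In fits of only the 2 groups compared, and for CAC also after TMM scaling, no member passed. After TMM scaling the NCAC calls were 2 up and 2 down, and relative to non-mitochondrial rows they were 1 up and 5 down, against 9 and 4 as deposited. Relative to non-mitochondrial rows the CAC calls were 0 up and 2 down, against 3 and 2. The count of 5 in CAC became 0, 1, 14 and 1 without CAC replicates 1, 2, 4 and 5, and 1, 0 and 2 without mock replicates 1, 2 and 3. The count of 13 in NCAC became 5, 0 and 1 without NCAC replicates 1, 2 and 5, and 8, 1 and 0 without mock replicates 1, 2 and 3. It was 20 without the 3 libraries that stood apart, where 8.58% of all genes passed. The 14 in CAC stood beside 8.51% of all genes. Excitatory neuron markers also moved, with 4 of 9 higher in each tumour arm (summed 1640 to 2885 TPM in mock, 2408 to 2938 in NCAC, 2624 to 3171 in CAC), and their part in the result was not tested. Of all genes 5.87% were called upward in NCAC and 3.68% in CAC.

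**Figure D3:**
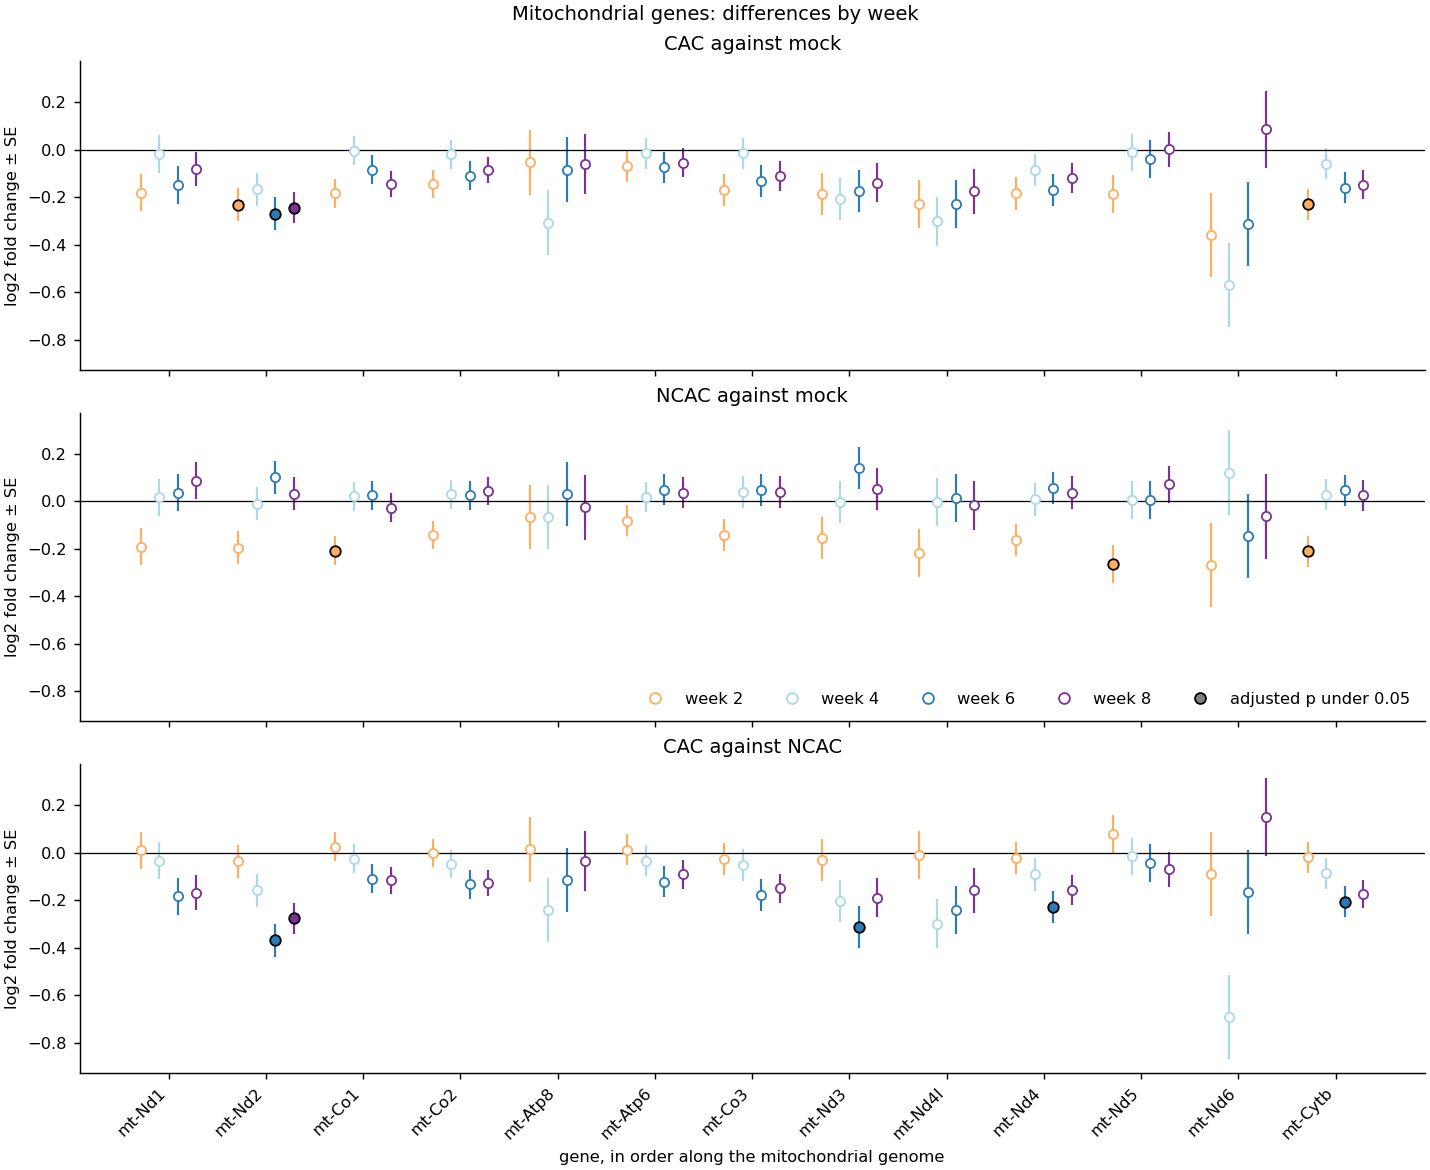
Log2 fold change ± SE (vertical axis, log2(TPM + 1) scale) of the 13 mitochondrial members in genome order, for CAC against mock, NCAC against mock and CAC against NCAC, with colour for the week and filled points for an adjusted p under 0.05. In CAC against mock nearly all points lie below 0 in each week, and mt-Nd2 passes at 2, 6 and 8 weeks; in NCAC against mock the points lie below 0 at 2 weeks.

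At 4 weeks no member passed in any comparison of arms. Of all genes, 0.0414% passed in CAC against mock, 0% in NCAC against mock and 0.0069% in CAC against NCAC. At an unadjusted p under 0.05, 14, 0 and 16 of 97 members were found. The share of all genes at that threshold is not given here, and members moved together, so these counts are descriptions only. The mitochondrial median in CAC against mock was -0.06 and the nuclear median -0.04, against 0.04 over all genes. With lane as a term these medians were -0.12 and -0.01. The widest mitochondrial estimate belonged to mt-Nd6, the light-strand subunit of complex I. Its values were 449.7, 396, 354.4, 535.4 and 519.5 TPM in mock, 425.8, 471.4, 528.3, 489.9 and 512.7 in NCAC, and 353.6, 354.2, 276.1, 244.3 and 286.2 in CAC. Every CAC library was below every mock and NCAC library, by a narrow margin for CAC replicates 1 and 2. The log2 fold changes were -0.57 ± 0.18 against mock (adjusted p = 0.201, limma) and -0.69 ± 0.18 against NCAC (adjusted p = 0.0911). CAC and mock were in different lanes at this week, so arm and lane cannot be told apart in that comparison. The fit with lane as a term does not settle this, because only NCAC at 4 weeks held both lanes. Its estimate of the lane effect rests on NCAC replicate 5, the only library of that group in lane 4. At 2, 6 and 8 weeks the arms shared a lane, so the term could not move estimates there, though it counts among the alternatives.

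One library decided the 4-week counts. Without CAC replicate 5, which had the highest mitochondrial share of its group (29.1% against 24.8 to 25.996%), 7 members passed in CAC against mock and 15 in CAC against NCAC, and all of them were lower in CAC. In those fits 5.24% of all genes passed against mock (0.572% downward) and 10.8% against NCAC (1.08% downward). Without CAC replicate 3, 2 members passed against NCAC, beside 1.92% of all genes.

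At 6 weeks the CAC neocortex had less mt-Nd2 and more of the nuclear subunits Ndufv1 and Cox4i1 than mock, and the difference from NCAC took in more mitochondrial genes. The mitochondrial median was -0.15 in CAC against mock and -0.18 in CAC against NCAC, with all 13 estimates below 0 in both. The nuclear medians were 0.05 and 0.01, against 0.03 and 0.08 over all genes, and the one against mock was 0.0074 relative to non-mitochondrial rows. In CAC against mock 3 of 97 members passed (2 rose, 1 fell), where 1.63% of all genes did, 1.2% upward and 0.428% downward. In CAC against NCAC 10 passed (5 rose, 5 fell), close to the 9.65% of all genes. By direction, 5 of 97 fell where 1.6% of all genes fell, and 5 of 97 rose where 8.05% rose. In NCAC against mock no member and 0% of all genes passed, with 3 of 97 members at an unadjusted p under 0.05 in limma. CAC is in both of the comparisons with calls, so they share its libraries.

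mt-Nd2 was at 10251, 11290, 11303, 10366 and 11250 TPM in mock, at 10676, 11861, 11100, 12610 and 12178 in NCAC, and at 8478, 10464, 8400, 8888 and 9051 in CAC. Of the CAC libraries 4 were below all others, while replicate 2 reached the lower mock values. It fell by 0.37 ± 0.07 against NCAC (adjusted p = 0.000803, limma), kept in 9 of 9 alternatives and in 10 of 10 fits that each left out 1 library. Against mock it fell by 0.27 ± 0.07 (adjusted p = 0.0279, limma). That call was lost when CAC replicate 1, 3 or 4, or mock replicate 2, 3 or 5, was left out (adjusted p from 0.054 to 0.15). It was kept in 5 of 9 alternatives. The losses were with no filter on level, TMM scaling, levels relative to non-mitochondrial rows and only the groups compared.

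Further mitochondrial members fell in CAC against NCAC. mt-Nd3, a small core subunit of complex I, fell by 0.31 ± 0.09 (adjusted p = 0.0217, limma), with 5063, 6254, 4760, 5438 and 5284 TPM in CAC against 5617, 6856, 6217, 7609 and 7028 in NCAC. mt-Nd4, of the proton-pumping arm, fell by 0.23 ± 0.07 (adjusted p = 0.0283, limma). mt-Cytb fell by 0.21 ± 0.07 (adjusted p = 0.0367, limma), and its adjusted p was 0.058 after TMM scaling although the estimate was then -0.29. In all of them CAC replicate 2 lay among the NCAC libraries. These calls rested on several libraries: mt-Nd3 passed in 5 of 10 fits leaving out 1 library, and mt-Nd4 and mt-Cytb in 3 each, with losses when CAC replicate 1 or 3, or NCAC replicate 2, 4 or 5, was left out, and for mt-Nd4 and mt-Cytb also CAC replicate 4 or 5 (adjusted p from 0.053 to 0.131).

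Ndufv1, the subunit of complex I that binds NADH and flavin, was higher in CAC than in both other arms at 6 weeks. It was at 166.3, 181.1, 163.9, 178 and 180.1 TPM in mock, at 173.7, 173.8, 186.1, 172.3 and 172.1 in NCAC, and at 214.3, 194.4, 204, 201.7 and 201.4 in CAC. All CAC libraries were above all libraries of the other arms. It rose by 0.22 ± 0.05 against mock (adjusted p = 0.00549, limma), kept in 9 of 9 alternatives and 10 of 10 fits leaving out 1 library, and by 0.21 ± 0.05 against NCAC (adjusted p = 0.0054). After TMM scaling the latter was 0.12 with an adjusted p of 0.146.

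Cox4i1, the nuclear regulatory subunit of complex IV used in most tissues, was at 839.3, 899.6, 812.8, 876 and 900.4 TPM in mock, at 833.7 to 908.4 in NCAC, and at 1032, 978.5, 957.6, 998.1 and 911.2 in CAC. The CAC libraries were all above both other arms. It rose by 0.17 ± 0.04 against mock (adjusted p = 0.0256, limma) and 0.17 against NCAC (adjusted p = 0.0146). After TMM scaling these were 0.14 (adjusted p = 0.295) and 0.08 (adjusted p = 0.487), and the call against mock was lost when CAC replicate 1 or 4, or mock replicate 1 or 3, was left out (adjusted p from 0.06 to 0.16). The call against NCAC was lost without CAC replicate 1 (adjusted p = 0.063). Against NCAC, Ndufb9 rose by 0.16 ± 0.05 (adjusted p = 0.0251, limma), Atp5a1 by 0.15 ± 0.05 (adjusted p = 0.0317) and Uqcrc1, a core protein of complex III, by 0.14 ± 0.05 (adjusted p = 0.0494). After TMM scaling these were 0.08, 0.07 and 0.05, and none passed (adjusted p from 0.417 to 0.591). None of them passed without CAC replicate 1 (adjusted p from 0.096 to 0.158).

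Atp5d, the delta subunit in the turning stalk of the ATP synthase, went the other way from Atp5a1. It fell by 0.20 ± 0.07 in CAC against NCAC (adjusted p = 0.0401, limma), with 241.7 ± 15.2 TPM (SD, n = 5) in CAC, 278.6 ± 15.8 in NCAC and 247.3 ± 18.97 in mock. The CAC mean was closer to mock than to NCAC. The call was lost when CAC replicate 1, 4 or 5, or NCAC replicate 2, 4 or 5, was left out (adjusted p from 0.073 to 0.127).

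The 6-week counts depended on scale and on single libraries. After TMM scaling the calls in CAC against NCAC were 0 up and 5 down, and relative to non-mitochondrial rows 1 up and 6 down, against 5 and 5 as deposited. In CAC against mock both scales gave 1 up and 0 down, against 2 and 1. The count of 10 became 2, 17, 6, 5 and 5 without CAC replicates 1 to 5, and 3, 4 and 4 without NCAC replicates 2, 4 and 5. The 17 stood beside 17.3% of all genes. The count of 3 became 1 when CAC replicate 1 or 4, or mock replicate 3, was left out. Markers of mature oligodendrocytes fell in the same libraries, 2 of 8 against mock and 6 of 8 against NCAC (summed 1995 to 2654 TPM in mock, 2172 to 2821 in NCAC, 1909 to 2129 in CAC, none at 0), and their part in the result was not tested. Of all genes 0.428% were called downward against mock and 1.6% against NCAC.

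**Figure D4:**
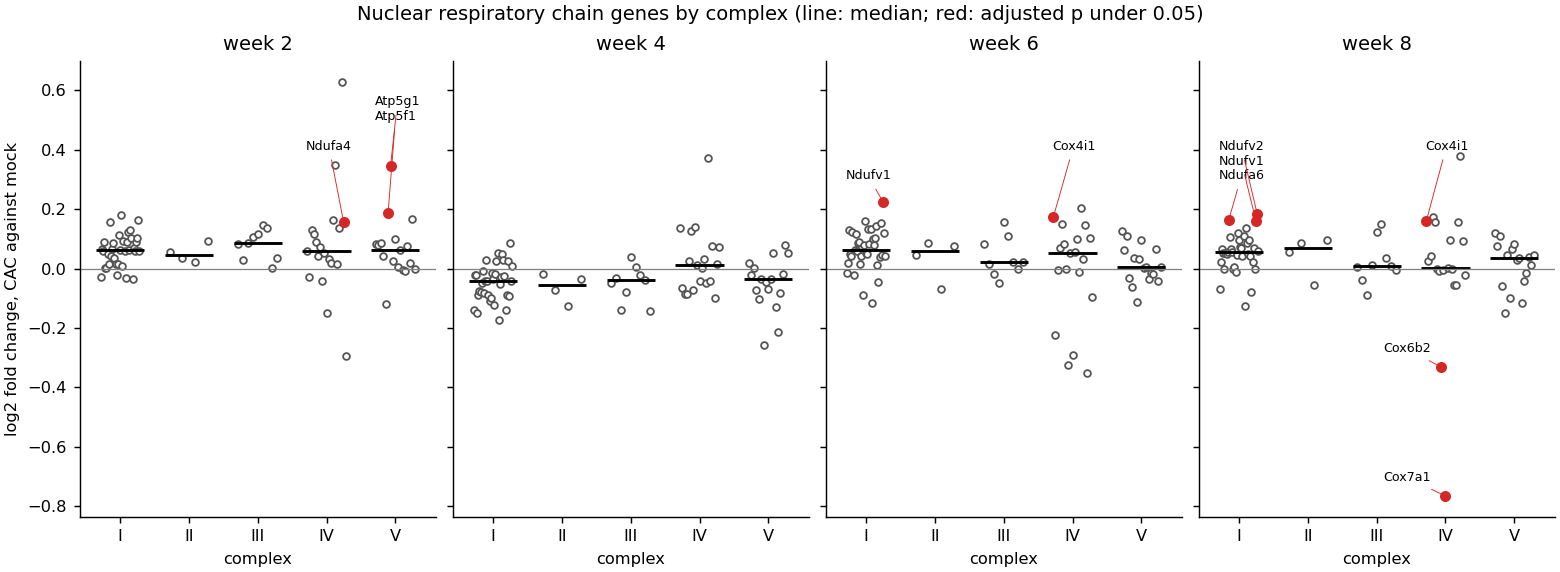
Log2 fold change of each tested nuclear member in CAC against mock (vertical axis, log2(TPM + 1) scale) by complex, 1 panel per week, with a line at each median and red points for an adjusted p under 0.05. The medians lie within 0.1 of 0, no complex II gene is red, and Cox7a1 and Cox6b2 lie far below the rest of complex IV at 8 weeks.

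At 8 weeks CAC differed from mock in 7 of 97 members (4 rose, 3 fell), where 8.6% of all genes passed, 4.91% upward and 3.69% downward, so as a set the members were called about as often as other genes. Those that rose were Ndufv1, Ndufv2 and Ndufa6 of complex I and Cox4i1 of complex IV. Those that fell were mt-Nd2 and the tissue isoforms Cox7a1 and Cox6b2. Against NCAC 3 members passed, all lower (mt-Nd2, Cox7a1 and Cox6b2), where 6.02% of all genes passed, 4.39% upward and 1.64% downward. In NCAC against mock no member and 0% of all genes passed, with 3 of 97 members at an unadjusted p under 0.05 in limma. The mitochondrial median was -0.11 in CAC against mock and -0.15 against NCAC, with 11 and 12 of 13 estimates below 0, and the nuclear medians were 0.04 and 0.01. Relative to non-mitochondrial rows the nuclear median against mock was 0.00617.

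mt-Nd2 was at 10624, 8812, 10405, 11287 and 11303 TPM in mock and at 10810, 10254, 9078, 11244 and 12256 in NCAC. In CAC the lowest of 7 libraries was at 7720, the median at 8756 and the highest at 9915. Mock replicate 2 and NCAC replicate 3 lay within the CAC range, and the other libraries of those arms above it. mt-Nd2 fell by 0.24 ± 0.06 against mock (adjusted p = 0.0107, limma) and by 0.28 ± 0.06 against NCAC (adjusted p = 0.00496). Both calls were kept in 12 of 12 fits that each left out 1 library. With no filter on level the adjusted p was 0.075 against mock and 0.051 against NCAC, and after TMM scaling it was 0.053 against mock. In fits of only the groups compared it was 0.0505 and 0.062. The mitochondrial genes other than mt-Nd2 had estimates from -0.18 for mt-Nd4l to 0.08 for mt-Nd6 against mock, and none passed.

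Ndufv1 and Ndufv2 of complex I rose at 8 weeks. They lie together where NADH hands over its electrons, and Ndufv2 carries an iron-sulfur cluster. Ndufv2 was at 149.9, 163, 161.7, 148 and 142.8 TPM in mock, at 164.2, 167.2, 174.3, 174.3 and 145.3 in NCAC, and at 163.6 (lowest), 175 (median) and 182 (highest) in CAC. CAC was above every mock library, narrowly for its lowest, and overlapped NCAC. It rose by 0.18 ± 0.05 (adjusted p = 0.0118, limma), kept in 9 of 9 alternatives. Leaving out mock replicate 5 brought its adjusted p to 0.055. Ndufv1 was at 166.6, 195.2, 184.2, 175.2 and 166.1 TPM in mock and at 186.5, 199 and 205.4 (lowest, median, highest) in CAC, with an overlap. It rose by 0.16 ± 0.04 (adjusted p = 0.0146, limma). With the replicate block its adjusted p was 0.054, and without mock replicate 1 or 5 it was 0.067 and 0.069.

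Ndufa6, an accessory subunit of complex I, rose by 0.16 ± 0.05 (adjusted p = 0.0411, limma) but passed in 4 of 9 alternatives. It was lost when CAC replicate 1, 2, 3 or 6, or mock replicate 1, 4 or 5, was left out (adjusted p from 0.053 to 0.128). Cox4i1 was at 828.4, 889.9, 830, 846.8 and 842.7 TPM in mock and at 908.1, 945 and 997 (lowest, median, highest) in CAC, with no overlap. It rose by 0.16 ± 0.04 (adjusted p = 0.00811, limma), kept in 12 of 12 fits leaving out 1 library. After TMM scaling it was 0.14 (adjusted p = 0.134) and relative to non-mitochondrial rows 0.12 (adjusted p = 0.077). NCAC was also estimated above mock at 8 weeks for Ndufv1 (0.05), Ndufv2 (0.11), Ndufa6 (0.08) and Cox4i1 (0.05), without passing. None of these genes passed in CAC against NCAC at that week, so their rise was not separated from the other tumour arm.

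No member of complex II passed in any comparison. Sdha was at 304.7, 336, 326.2, 294.9 and 298.5 TPM in mock at 8 weeks and within 309.6 to 335.5 in CAC, which lies inside the mock range. Its log2 fold change was 0.06 (adjusted p = 0.478, limma). Sdhd, a membrane anchor of complex II, had 0.10 (adjusted p = 0.175). Complexes III and V had no call in CAC against mock at 8 weeks either. Cox8a, the most abundant nuclear member, had 0.16 (adjusted p = 0.204).

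The lowest values of the set gave the widest difference. Cox7a1 encodes the heart and skeletal muscle form of a complex IV subunit. At 8 weeks it was at 7.12, 7.73, 6.62, 6.33 and 6.95 TPM in mock (6.95 ± 0.530, SD, n = 5) and at 4.59, 6.94, 6.38, 6.67 and 6.31 in NCAC. In CAC it was at 2.26, 3.83 and 5.27 TPM (lowest, median, highest, 3.76 ± 1.03, SD, n = 7). All CAC libraries were below all mock libraries, and NCAC replicate 1 lay within the CAC range. Cox7a1 fell by 0.77 ± 0.14 against mock (adjusted p = 0.000175, limma) and by 0.61 ± 0.14 against NCAC (adjusted p = 0.00377). Both calls were kept in 9 of 9 alternatives and 12 of 12 fits leaving out 1 library. On the log2(TPM + 1) scale used here the fold of so low a gene is understated.

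Cox6b2, a testis isoform of a complex IV subunit, was at 5.12, 3.92, 4.96, 5.14 and 4.28 TPM in mock at 8 weeks and at 5.12, 5.37, 4.26, 5.39 and 5.77 in NCAC. In CAC it was at 2.87, 3.27 and 4.94 (lowest, median, highest), overlapping both. It fell by 0.45 ± 0.11 against NCAC (adjusted p = 0.00674, limma), kept in 12 of 12 fits leaving out 1 library. Against mock it fell by 0.33 ± 0.11 (adjusted p = 0.0455, limma) and the call was lost when CAC replicate 1, 2, 4, 5 or 6, or mock replicate 1, 3, 4 or 5, was left out (adjusted p from 0.057 to 0.121). At 6 weeks its CAC libraries were within 3.33 to 3.77 TPM, with -0.34 against NCAC and an adjusted p of 0.0525.

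Among all 7 tested tissue isoforms 2 fell and 0 rose in CAC against mock at 8 weeks. Those that did not pass were Cox4i2, a lung isoform, with 0.02, Cox6a2, a muscle isoform, with 0.00, Cox7b2 with -0.05, Cox8b, the muscle relative of Cox8a, with 0.38 (adjusted p = 0.379), and Ndufa4l2. The pericyte and smooth muscle markers had no call at 8 weeks, with a median of -0.18 and summed levels of 240 to 265.9 TPM in mock, 217.6 to 267.6 in NCAC and 178.2 to 257.3 in CAC. Oligodendrocyte markers fell, 3 of 8 against mock and 4 of 8 against NCAC (1948 to 2367, 2079 to 2610 and 1525 to 2286 TPM), and 4 of 8 microglia markers fell against mock. Their part in the result was not tested. Of all genes 3.69% were called downward against mock and 1.64% against NCAC.

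After TMM scaling the 8-week calls against mock were 2 up and 2 down, and relative to non-mitochondrial rows 2 up and 3 down, against 4 and 3 as deposited. The count of 7 became 4, 11 and 3 without mock replicates 1, 2 and 5, and the count of 3 against NCAC became 6 without NCAC replicate 3. The 11 stood beside 7.75% of all genes and the 6 beside 9.98%.

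**Figure D5:**
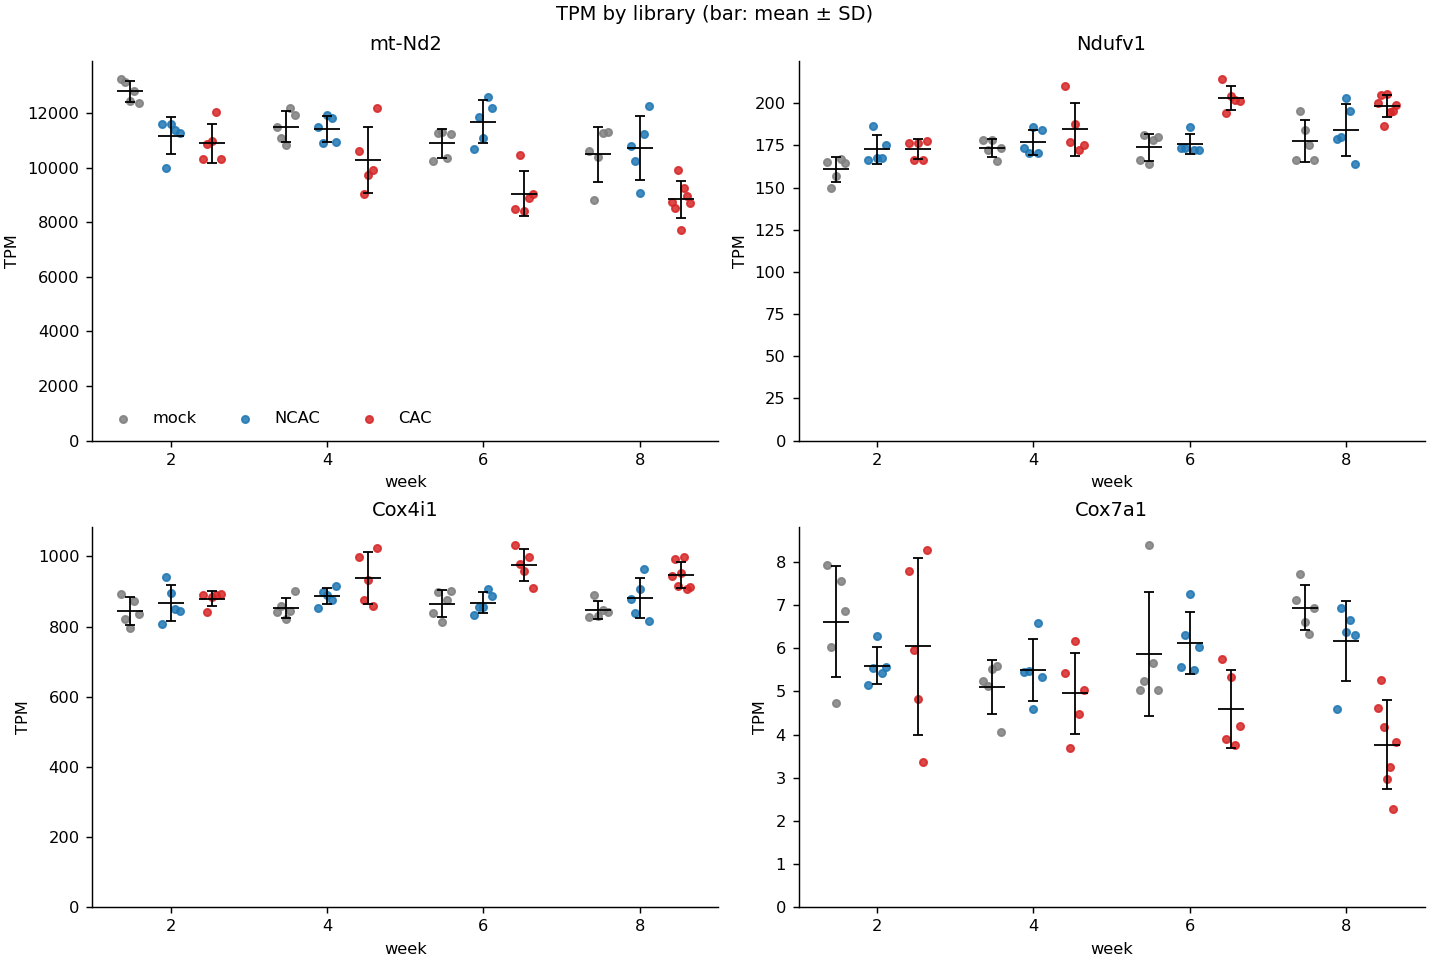
TPM (vertical axes from 0) of mt-Nd2, Ndufv1, Cox4i1 and Cox7a1 in every library by week and arm, with group means ± SD. CAC libraries at 6 weeks sit above both other arms for Ndufv1 and Cox4i1, and at 8 weeks all CAC libraries of Cox7a1 (2.26 to 5.27) lie below all mock libraries (6.33 to 7.73).

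Whether these differences changed between weeks was tested directly, and no member passed. In the change of CAC against mock from 2 to 8 weeks 1.32% of all genes passed by limma, and 3 of 97 members had an unadjusted p under 0.05. Atp5g1 had -0.45 ± 0.13 (adjusted p = 0.0741, limma), and Cox7a1 had -0.62 ± 0.20 (adjusted p = 0.119). The count became 1 without CAC or mock replicate 4 of 2 weeks, without CAC replicate 3 of 8 weeks, and without the 3 libraries that stood apart. From 4 to 8 weeks Cox7a1 had -0.72 ± 0.20 (adjusted p = 0.316, limma), and from 6 to 8 weeks -0.47 ± 0.20 (adjusted p = 1.00), with 0% of all genes passing in either, and 13 and 2 of 97 members at an unadjusted p under 0.05. mt-Nd2, called at 2, 6 and 8 weeks, had a change of -0.01 from 2 to 8 weeks, -0.08 from 4 to 8 weeks and 0.03 from 6 to 8 weeks. Mock at 8 against 4 weeks gave 0% of all genes and no member, with 7 of 97 at an unadjusted p under 0.05, and 13 of 13 mitochondrial estimates below 0 (median -0.10). Of these, mt-Nd6 had -0.58 ± 0.18 (adjusted p = 0.277, limma), with both mock groups in lane 4. Cox7a1 had 0.39 ± 0.15 (adjusted p = 0.286, limma) between these mock groups. Its change of CAC against mock from 4 to 8 weeks therefore includes a higher estimate in mock at 8 weeks.

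The genes that build and feed the chain were taken from lists of other mitochondrial functions, and their values are on the deposited TPM only. Of 45 assembly factors 1 rose and 2 fell in CAC against mock at 8 weeks (6.67% called), where 8.6% of all genes passed, 4.91% upward and 3.69% downward. Surf1, needed for complex IV assembly, rose from 76.9 ± 2.59 TPM (SD, n = 5) to 88.0 ± 3.34 (SD, n = 7), a log2 fold change of 0.19 (adjusted p = 0.00352, limma). Coa5, of complex IV assembly, fell by 0.16 (adjusted p = 0.0319), and Tmem70, of ATP synthase assembly, fell by 0.20 (adjusted p = 0.0454). None of 29 genes for expression of mitochondrial DNA and none of 18 biogenesis regulators passed, with 3 and 0 at an unadjusted p under 0.05 in limma. Of 77 mitochondrial ribosomal proteins 3 rose and 0 fell (Mrpl2, Mrpl11 and Mrpl38, with 0.18 to 0.24), which is 3.9% and below the upward share of all genes, and of 80 cytosolic ones 8 rose and 0 fell (10%), led by Rps14 with 0.27 (adjusted p = 0.00222).

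Upstream of the chain, Pdk4, Pdk2 and Idh2 rose at 8 weeks. They were 3 of 21 genes of the citric acid cycle and pyruvate dehydrogenase (14.3%), of which 0 fell, where 4.91% of all genes rose and 3.69% fell. Pdk4, a kinase that switches pyruvate dehydrogenase off, went from 15.4 ± 1.66 TPM in mock to 29.2 ± 7.96 in CAC, a rise of 0.83 ± 0.18 (adjusted p = 0.00154, limma). Its relative Pdk2 rose from 92.9 ± 4.48 to 117 ± 11.1 TPM (0.32, adjusted p = 0.000309), and Idh2, the NADP-dependent mitochondrial isocitrate dehydrogenase, from 37.03 ± 3.63 to 50.98 ± 6.41 TPM (0.44, adjusted p = 0.000647). Of 25 genes for electron carriers and other entry points 1 rose (4%), Dhodh, a pyrimidine synthesis enzyme that passes electrons to ubiquinone, with 0.23 (adjusted p = 0.00761). These lists had medians of 0.00 (assembly), 0.02 (expression of mitochondrial DNA), 0.02 (biogenesis), 0.03 (mitochondrial ribosome), 0.06 (cytosolic ribosome), 0.02 (citric acid cycle) and 0.03 (carriers) against 0.02 over all genes.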

How the data were processed

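The authors deposited 1 table of TPM values, with 47643 genes in rows and 62 libraries in columns, each summing to 1000000. RNA was extracted with Trizol, prepared with the TruSeq stranded mRNA kit and sequenced on an Illumina NovaSeq, per the labels' protocols. Per the submitters' processing notes, mm10 was the genome build. Which aligner, quantifier, annotation and strand setting were used is not given in the sources used here. Reads of overlapping genes, opposite strands (mt-Nd5 and mt-Nd6 share 14 bases) or near-identical copies may be misassigned. The mitochondrial ribosomal and transfer RNA rows and 7 rows of nuclear copies of mitochondrial DNA were listed at 0 in every library. Date-like symbols (27) were left unnamed.

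Depth was estimated from whole-read steps of low TPM with GENCODE vM21 exon lengths for 45065 symbols, and 86.4% of 207446 low values were whole within 0.05. As TPM keeps no depth, these reads entered no test. No 2 libraries held identical values (highest correlation 0.994).

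Tested were the 14494 genes whose mean reached 1 TPM. Their log2(TPM + 1) values were fitted in limma 3.58.1 (R 4.3.3) with a variance trend, over all 12 groups (50 residual degrees of freedom). Fold changes are differences on this scale, and they understate changes of low genes. P-values were adjusted by Benjamini-Hochberg over all tested genes within each of 16 comparisons. In simulated data with 200 changed genes among 14494, the fit for CAC against mock at 8 weeks recovered 38%, 92%, 94% and 100% of genes changed 1.2, 1.5, 2 and 4 times, with 2.41% false calls. Whether these rates hold for the deposited values, in which members moved together within groups, was not tested.

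The members and lists were chosen with earlier results of these data known, so medians and counts over members are descriptions without a test. Counts at an unadjusted p under 0.05 are given without the share of all genes at that threshold, and are descriptions too. Named were all mitochondrial members, per complex up to 3 called nuclear members with the lowest p in each comparison and the most abundant one, the tissue isoforms, for a complex without calls its member with the lowest p, and up to 4 called genes of each other list. Alternatives were TMM scaling (30% of ratios and 5% of levels trimmed), levels relative to the sum over non-mitochondrial rows, a pseudocount of 0.1, no filter on level, a replicate block, robust moderation, a term for lane, only the groups compared, leaving out 3 libraries that stood apart (mock replicate 5 of 2 weeks, CAC replicate 1 of 4 weeks, CAC replicate 3 of 8 weeks), and leaving out each library in turn.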

Additional observations from a re-analysis of the deposited data

Results flagged for a closer look

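Single libraries stood apart from the rest of their group in 33 of 504 groups of values, judged by the gap to the nearest library relative to the range of the group. Chance flags about 1 in 20 groups, which is 25.2 here, so the number is not far above it. The flags fell in 18 libraries.

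Among mitochondrial members, NCAC replicate 2 of 2 weeks was low in mt-Nd2 (9994 TPM, others 11266 to 11614) and mt-Cytb (17843, others 19612 to 20212). mt-Co1 was low in mock replicate 3 of 4 weeks (51826) and high in mock replicate 3 of 6 weeks (55331) and NCAC replicate 5 of 8 weeks (59662). mt-Co2 was high in CAC replicate 4 of 2 weeks (45079). mt-Atp8 was high in mock replicate 5 of 4 weeks (20792) and low in CAC replicate 1 of that week (7480). mt-Nd4l was high in mock replicate 4 of 4 weeks (12128), and mt-Nd5 low in NCAC replicate 4 of 8 weeks (5876). The mitochondrial share of CAC replicate 5 of 4 weeks was 29.1%.

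In complexes I to III, CAC replicate 1 of 6 weeks was high in Ndufs3 (154 TPM) and Ndufv2 (211). Ndufv1 was high in NCAC replicate 3 of 6 weeks (186), Ndufa6 in CAC replicate 1 of 2 weeks (340.1) and Sdha in mock replicate 5 of 2 weeks (335). Uqcrfs1 was low in NCAC replicate 5 of 8 weeks (182) and Uqcrc1 in mock replicate 4 of 4 weeks (149).

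In complexes IV and V, Ndufa4 was high in NCAC replicate 2 of 2 weeks (541) and CAC replicate 1 of 6 weeks (549) and low in NCAC replicate 5 of 8 weeks (420.3). That last library was also low in Atp5f1 (147) and Atp5b (699) and high in Cox4i2 (8.03). Cox4i1 was low in CAC replicate 2 of 2 weeks (841). Cox7a1 was high in mock replicate 3 of 6 weeks (8.40) and low in NCAC replicate 1 of 8 weeks (4.59), and Cox7b2 was high in the former library (3.80). Cox6b2 was high in mock replicate 5 of 2 weeks (5.04), Cox8a in mock replicate 5 of 4 weeks (1982), Cox8b in mock replicate 1 of 4 weeks (7.93), Cox4i2 in CAC replicate 4 of 6 weeks (9.50) and Atp5d in NCAC replicate 4 of 8 weeks (301).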

How the results depend on the processing

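No call of a single member changed direction: of 369 values under alternatives 257 stayed past the threshold and 112 did not, and of 430 values without 1 library 263 did and 167 did not. Counts of called members moved as follows. With no filter on level they were 0 and 4 for CAC and NCAC against mock at 2 weeks (5 and 13 as reported), 4 for CAC against NCAC at 6 weeks (10) and 4 for CAC against mock at 8 weeks (7). With TMM scaling they were 0, 4, 5 and 4, and 1 for CAC against mock at 6 weeks (3). Relative to non-mitochondrial rows they were 2 and 6 at 2 weeks and 1 for CAC against mock at 6 weeks, and the nuclear median of CAC against mock at 2 weeks was -7.95e-05 (0.06). With only the groups compared they were 0 and 0 at 2 weeks, 1 and 4 for CAC against mock and NCAC at 6 weeks and 1 for CAC against NCAC at 8 weeks (3). Without the 3 libraries that stood apart they were 20 for NCAC against mock at 2 weeks, 5 for CAC against NCAC at 8 weeks and 1 for the change from 2 to 8 weeks (0).

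Leaving out each library gave 0 to 14 and 0 to 17 members for CAC and NCAC against mock at 2 weeks, 0 to 7 and 0 to 15 for CAC against mock and NCAC at 4 weeks, 1 to 3 and 2 to 17 at 6 weeks, 3 to 11 and 3 to 6 at 8 weeks, and 0 to 1 for the change from 2 to 8 weeks. The mitochondrial medians of CAC against mock ranged from -0.24 to -0.14 at 2 weeks, -0.10 to -0.04 at 4, -0.19 to -0.10 at 6 and -0.15 to -0.08 at 8 weeks, and the nuclear ones from 0.04 to 0.09, -0.06 to -0.02, 0.02 to 0.07 and 0.02 to 0.07.

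Over 60 same-numbered pairs of libraries the deviations correlated at -0.252 to 0.276 (median 0.022), with 19 above 0.1. Pairs with unlike numbers are not given, so this does not decide whether replicate numbers pair the libraries. With the replicate block the counts for CAC and NCAC against mock and CAC against NCAC were 6, 14 and 0 at 2 weeks, 0 each at 4 weeks, 2, 0 and 13 at 6 weeks and 5, 0 and 3 at 8 weeks. Mock at 8 against 4 weeks could not be fitted with the block. The low estimated reads of Cox7b2 and Cox8b (median 13.98 and 13.9) limit what can be seen of them.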
